A study of Rattus norvegicus with 15 samples.

Results

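Potassium channels of smooth muscle that have been named in the oxygen response of the ductus arteriosus were read in rat ductus and aorta around birth. The set held 7 genes: Kcnj8 and Abcc9 (the vascular ATP-sensitive channel), Kcna5 and Kcnd3 (voltage-gated channels), Kcnma1 and Kcnmb1 (the large calcium-activated channel) and Kcnk3 (a background channel). Every probe set whose annotation gave exactly 1 of these symbols was taken, which gave 16 of the 26202 probe sets and 7 of the 10969 named genes, all on chip type A. The study had 5 states, with 1 array each on the Affymetrix rat chips A, B and C (3 chip types, 15 arrays). The newborn ductus and newborn aorta came from rats 3 h after vaginal delivery, dissected in medium gassed with 12.5% oxygen. The oxygen ductus came from fetuses at day 19 of gestation taken by caesarean section from dams kept in 100% oxygen for the last 3 h. The fetal ductus and fetal aorta came from day 19 fetuses of normoxic dams. The fetal description gives 2.5% oxygen for the medium, which was taken to hold for all fetal vessels, the oxygen ductus included. All vessels were cleaned of adhering tissue, the aorta was its arch and thoracic part, and how many animals an array represents is not given in the labels. The chip A array of the newborn aorta is titled as 3 h post coitum but described as newborn, and it was read as newborn.

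The ductus arteriosus joins the pulmonary artery to the aorta before birth and constricts when oxygen rises. Open potassium channels hold the smooth muscle membrane at a negative potential and keep voltage-gated calcium channels shut, so that channel closure depolarises the cell, lets calcium in and contracts it. Voltage-gated channels are usually placed at the centre of this oxygen response, ATP-sensitive channels are the targets of vessel-relaxing drugs, and large calcium-activated channels act as a brake on contraction. These statements are background and were not measured here.

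Values are signal intensities on a linear scale. A signal under the floor, which is the pooled median of its chip type (149.8 on chip A), counts here as near background and was set to the floor before log2 was taken. A ratio with an array at the floor is a bound, and a pair with both arrays under it has no ratio. No state had replicates on a chip type, so a ratio compares 2 arrays and carries no test. The only error available is an estimate from the disagreement of vessel and birth effects over 3875 chip A probe sets. It gave a standard deviation (SD) of a log2 ratio of 0.34 at the dim end (signals of 156.7 to 291.5) and 0.20 at the bright end, and true differences between vessels in their change at birth are part of it. The array number limits the precision. The arrays of chip A had been scaled alike, with means of 500.8 to 500.9 after trimming 2% at each end, and 46.9% to 51.9% of their probe sets lay above the floor. The oxygen ductus array had the lowest median of the 5, 126.2 against 150.95 to 163.15 in the others. That array did not enter the estimate of the SD.

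Of the 16 probe sets, 5 lay above the floor in all 5 states, 3 in some and 8 in none. Read at the brightest probe set of each gene (the highest mean signal over the 5 arrays), Kcnj8, Abcc9, Kcnmb1 and Kcnk3 were above the floor in every state. Kcna5 was near background in the newborn aorta, Kcnd3 was near background in the oxygen and fetal ductus, and Kcnma1 was near background everywhere. Levels of different probe sets depend on their own probes and were not set against each other.

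**Figure D1:**
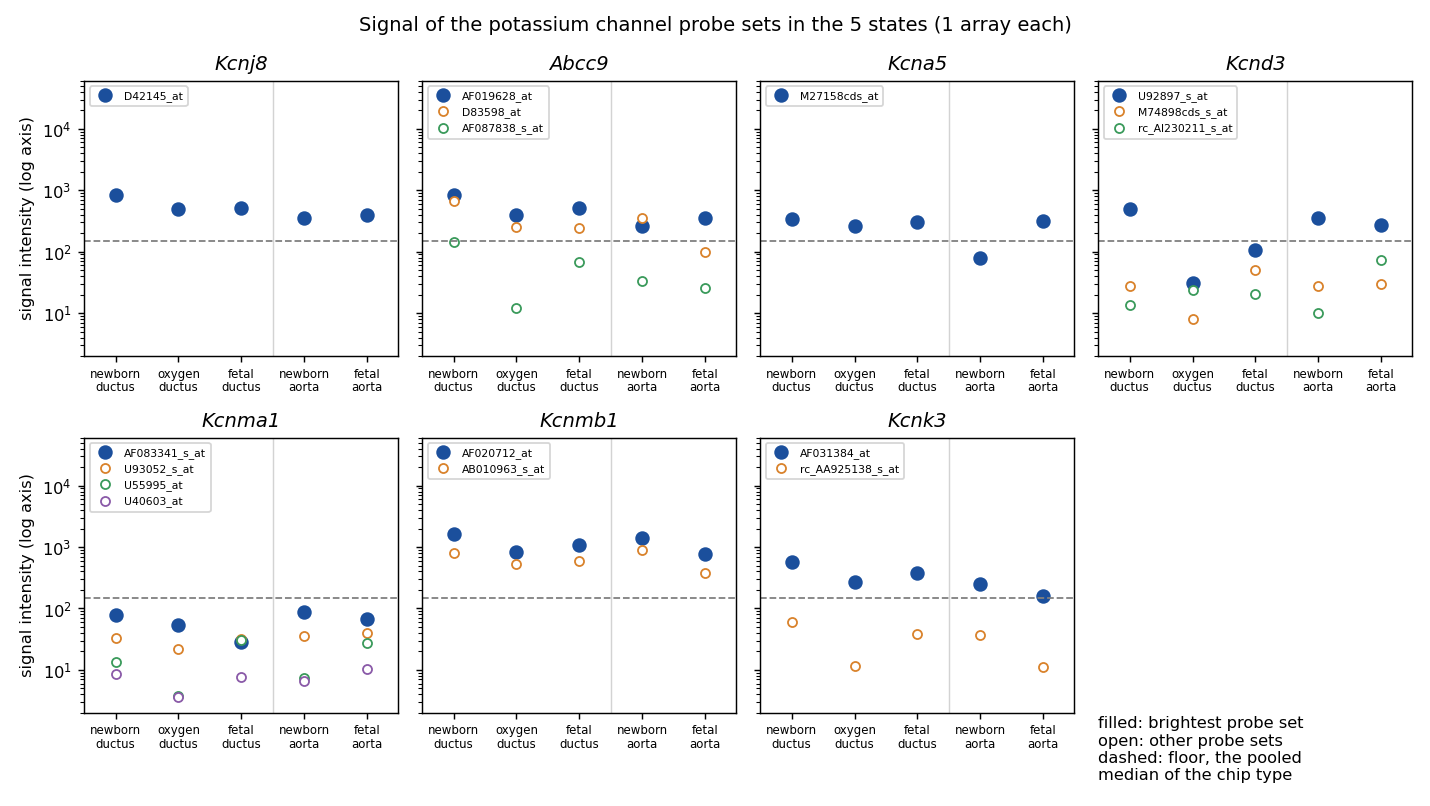
Signal intensity (log axis) of each of the 16 probe sets in the 5 states, 1 array per point, with newborn, oxygen and fetal ductus left of newborn and fetal aorta. The filled points mark the brightest probe set of a gene, and the dashed line marks the floor of 149.8, under which all 4 Kcnma1 probe sets lie in every state.

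Kcnj8 encodes the pore of the ATP-sensitive channel (Kir6.1), which opens when ATP falls or when channel-opening drugs act on its partner subunit. Its single probe set (D42145_at) read 844.8 in the newborn ductus, 497.5 in the oxygen ductus, 507.4 in the fetal ductus, 355.3 in the newborn aorta and 394.4 in the fetal aorta. The newborn ductus stood apart at the top, the oxygen and fetal ductus were level with each other, and both aortas were lower. In order of signal, the step from newborn to fetal ductus was 0.74 on the log2 scale, against an estimated SD of a ratio of 0.30. The fetal and oxygen ductus were 0.03 apart and the fetal and newborn aorta 0.15 apart, both within that SD. By rank within its array the probe set lay at the 84.0 percentile in the newborn ductus and at the 68.8 percentile in the newborn aorta.

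Abcc9 encodes the sulphonylurea receptor (SUR2) that surrounds this pore and carries its drug and nucleotide sites. The brightest of its 3 probe sets (AF019628_at) read 821.3 in the newborn ductus, 402.5 in the oxygen ductus, 510.2 in the fetal ductus, 258.8 in the newborn aorta and 351.7 in the fetal aorta. The order of the states was that of Kcnj8, with the newborn ductus first and the newborn aorta last. The step from newborn to fetal ductus was 0.69 (SD 0.34), and those from fetal to oxygen ductus (0.34), from oxygen ductus to fetal aorta (0.19) and from fetal to newborn aorta (0.44) were at or near the SD. A second probe set (D83598_at) read 674.1, 248.8 and 243.9 in the newborn, oxygen and fetal ductus, and 349.4 and 99.1 in the newborn and fetal aorta. It shared the high newborn ductus but put the newborn aorta above the fetal aorta, which was near background. So the probe sets of Abcc9 disagree on the aorta, and which of them follows the main transcript was not tested. The third (AF087838_s_at) never passed the floor, although at 143.7 in the newborn ductus it lay just under it, against 11.9 to 67.2 in the other states.

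Kcnj8 and Abcc9 are neighbours on chromosome 4 of the RefSeq assembly GRCr8. Kcnj8 lies at chr4:177240692-177246548 and Abcc9 at chr4:177262848-177386837, with 16299 bases between them and 0 annotated genes starting there. Both are read from the minus strand. Because they encode the 2 subunits of a single channel, and the brightest probe sets of both ordered the states alike (D83598_at of Abcc9 did not), their RefSeq promoter windows are shown, 250 bases before to 50 bases after each annotated start, 5′ to 3′ on the gene's strand, at chr4:177246499-177246798 for Kcnj8 and chr4:177386299-177386598 for Abcc9. The start used for Abcc9 in the RefSeq promoter table lies inside the gene span given above and not at its end. Capitals mark matches, on either strand, to GGGCGG (a GC box), GCGTG (part of the dioxin and hypoxia response elements) and CANNTG (an E-box).
Kcnj8: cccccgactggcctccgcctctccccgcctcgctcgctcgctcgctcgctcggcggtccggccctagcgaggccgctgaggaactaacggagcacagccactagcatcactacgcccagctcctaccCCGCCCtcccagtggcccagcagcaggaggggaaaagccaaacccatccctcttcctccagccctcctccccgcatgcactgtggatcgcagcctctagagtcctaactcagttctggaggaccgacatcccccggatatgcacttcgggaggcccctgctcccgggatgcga
Abcc9: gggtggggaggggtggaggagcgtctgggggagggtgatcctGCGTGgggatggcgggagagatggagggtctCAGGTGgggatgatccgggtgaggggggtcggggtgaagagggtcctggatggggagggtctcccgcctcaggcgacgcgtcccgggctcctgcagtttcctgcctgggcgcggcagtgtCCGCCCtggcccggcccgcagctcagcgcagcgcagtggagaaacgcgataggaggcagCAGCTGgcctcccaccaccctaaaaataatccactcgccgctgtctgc
The Kcnj8 window held 1 GC box and none of the other motifs searched. The Abcc9 window held 1 GC box, 1 GCGTG and 2 E-boxes. Over 33469 RefSeq promoter windows of this length, 33.1% held a GC box, 29.7% held GCGTG and 72.1% held an E-box. The core of the hypoxia response element is ACGTG or GCGTG, so the GCGTG of the Abcc9 window is a match to it too. Its ACGTG form is held by 19.3% and had 0 matches in either window. The CArG box of smooth muscle genes, held by 1.64%, had 0 matches as well. ACGTG can overlap an E-box. A match is a run of letters and not a shown binding site. The table held windows for 6 of the 7 genes, all but Kcnk3.

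Kcna5 encodes Kv1.5, a delayed rectifier that opens on depolarisation and whose closure by oxygen has been described in ductus muscle of other species. Its single probe set (M27158cds_at, gene at chr4:161040853-161044311) read 334.7 in the newborn ductus, 260.1 in the oxygen ductus, 299.3 in the fetal ductus, 79.0 in the newborn aorta and 311.4 in the fetal aorta. The newborn aorta stood alone near background, and the other 4 states lay close together. In order of signal, the 3 steps among those 4 states were 0.06 to 0.20 on the log2 scale, under the SD of 0.34. The step down to the newborn aorta was at least 0.80.

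Kcnd3 encodes Kv4.3, the pore of a transient outward current that is also prominent in heart muscle. Its brightest probe set (U92897_s_at, gene at chr2:195626316-195843690) read 496.9 in the newborn ductus, 30.5 in the oxygen ductus, 106.0 in the fetal ductus, 354.4 in the newborn aorta and 269.2 in the fetal aorta. The oxygen and fetal ductus were near background while the newborn ductus was the highest state, and the fetal aorta lay above the fetal ductus. Its other 2 probe sets stayed under the floor in every state, at 8.0 to 73.4, so the pattern rests on a single probe set.

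Kcnma1 encodes the pore of the large-conductance calcium- and voltage-activated channel. None of its 4 probe sets reached the floor in any state. The brightest (AF083341_s_at, gene at chr15:351065-1057117) read 79.6, 53.8 and 28.8 in the newborn, oxygen and fetal ductus and 87.2 and 68.4 in the newborn and fetal aorta. The other 3 read 3.6 to 39.4. No ratio was formed for it, and signals at this level do not show that the transcript was absent.

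Kcnmb1 encodes the beta subunit that makes this channel more sensitive to calcium and is abundant in smooth muscle. The brightest probe set (AF020712_at, gene at chr10:19062014-19119005) read 1647.5 in the newborn ductus, 819.6 in the oxygen ductus, 1090.0 in the fetal ductus, 1416.7 in the newborn aorta and 764.1 in the fetal aorta. Both newborn vessels were higher than every fetal one, the oxygen ductus included. The newborn ductus and newborn aorta were 0.22 apart and the oxygen ductus and fetal aorta 0.10 apart, within the SD of 0.28. The second probe set (AB010963_s_at) read 812.5, 535.1 and 601.3 in the newborn, oxygen and fetal ductus and 887.6 and 381.4 in the newborn and fetal aorta. It repeated the split between newborn and fetal vessels, with the newborn aorta rather than the newborn ductus on top.

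Kcnk3 encodes TASK-1, an acid-sensitive background channel that helps to set the resting potential of pulmonary artery muscle. The brighter of its probe sets (AF031384_at, gene at chr6:31483129-31519061) read 575.3 in the newborn ductus, 268.8 in the oxygen ductus, 374.6 in the fetal ductus, 253.2 in the newborn aorta and 157.6 in the fetal aorta. The ductus was higher than the aorta of the same age at both ages, and the fetal aorta lay just over the floor. The oxygen ductus and newborn aorta were 0.09 apart on the log2 scale, and the other neighbouring states were 0.48 to 0.68 apart, against an SD of 0.34. The other probe set (rc_AA925138_s_at) stayed near background at 11.1 to 60.2.

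Of the 7 genes, 6 were above the floor in at least 1 state, and in 6 of those 6 the newborn ductus was the highest of the 5 states at the brightest probe set. Among 8030 genes above the floor in any state, the newborn ductus was highest in 17.3%. This was not particular to the channels. The newborn ductus was also highest for all smooth muscle markers measured but Cnn1, Cald1, Vcl and Csrp1. For Kcna5 the lead of the newborn ductus over the fetal aorta, and for Kcnmb1 its lead over the newborn aorta, was smaller than the SD of a ratio. At the second Kcnmb1 probe set (AB010963_s_at) the newborn aorta was the higher, at 887.6 against 812.5. The newborn ductus array enters 3 of the 6 pairs of states compared here, so these pairs are not independent readings.

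**Figure D2:**
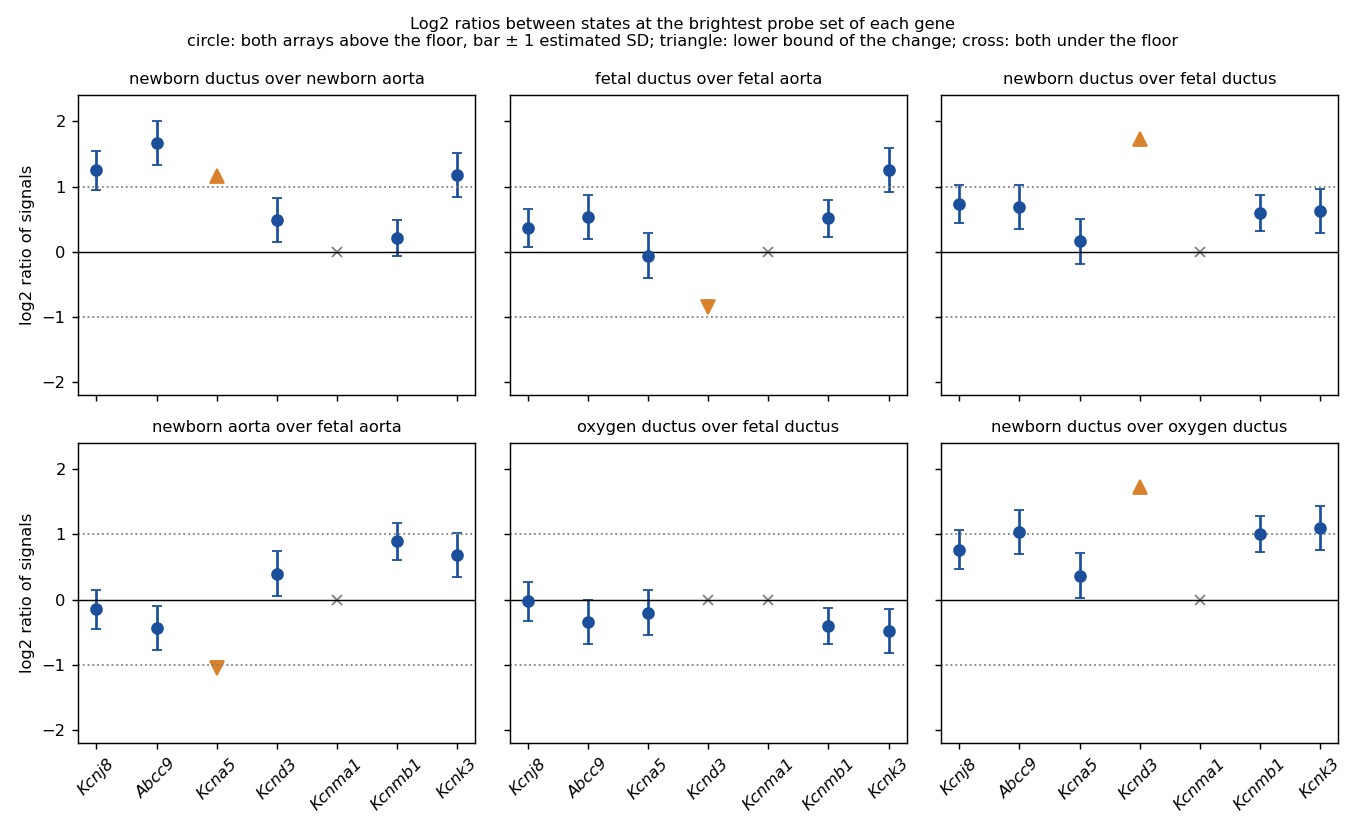
Log2 ratios of the 7 genes in 6 pairs of states at the brightest probe set. Circles with bars are ratios of 2 arrays above the floor ± 1 estimated SD, triangles are bounds, crosses mark pairs with both arrays under the floor, and dotted lines mark 2-fold. Newborn ductus over newborn aorta places Kcnj8, Abcc9, Kcna5 and Kcnk3 above the upper dotted line, and oxygen over fetal ductus places the 5 readable genes at or below 0.

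The newborn ductus was set against the newborn aorta to find what marks the ductus after birth. Kcnj8 was 2.38-fold higher (log2 ratio 1.25, SD 0.30), Abcc9 3.17-fold higher (1.67, SD 0.34) and Kcnk3 2.27-fold higher (1.18, SD 0.34). Kcna5 was at least 2.23-fold higher, because the newborn aorta was at the floor, so it entered this comparison through the ductus alone. Kcnd3 was 1.40-fold higher (0.49, SD 0.34) and Kcnmb1 had a log2 ratio of 0.22 (SD 0.28). Of the 6 genes with a ratio, 4 passed 2-fold upward and 0 downward, with a median log2 ratio of 1.17. Over the 7530 genes with a ratio, 1.25% passed 2-fold upward and 1.18% downward, with a median of -0.01. The count of 4 depends on the reading: a floor 2 times as high left 2, the mean over all probe sets of a gene left 2, and subtracting the median of smooth muscle genes left 0.

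Smooth muscle genes were also higher in the ductus of newborns than in their aorta. Which cells of the vessels the channel signals came from was not measured. All 15 measured markers of smooth muscle were above the floor in every state, with a summed signal of 163995 in the newborn ductus against 105438 in the newborn aorta and a median log2 ratio of 0.81. Relative to that median, Abcc9 was 0.85 higher, Kcnj8 0.44 higher, Kcnk3 0.37 higher and Kcna5 at least 0.35 higher, while Kcnd3 was at -0.33 and Kcnmb1 at -0.60. Of the pericyte markers, 5 of 6 were above the floor in every state. Their summed signal was 29790.1 in the newborn ductus against 12030.8 in the newborn aorta, most of it from Rgs5 (20994 against 7567.1), which damps G protein signals in mural cells of vessels. The median log2 ratio of the list was 0.36. Of the 5 with a ratio, 2 were at least 2-fold higher in the newborn ductus and 0 lower. Mcam read 6244.7 against 2171.1 (2.88-fold higher), Cspg4 1526.4 against 1190.9, Pdgfrb 459.3 against 570.8 and Anpep 507.5 against 491.5. These markers were named after their values were seen. Fat markers ran the other way, at 5310.2 in the newborn ductus against 14834.2 in the newborn aorta, with 8 of 10 at least 2-fold lower in the ductus. Endothelial markers summed to 14472.8 in the newborn ductus against 14099.3 in the newborn aorta, and nerve and chromaffin markers to 6160.7 against 5607.6. The part of these lists in the channel ratios was not tested, and in whole vessels fewer cells of a type and less RNA per cell cannot be told apart.

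The same question was put before birth with the fetal vessels, ductus over aorta. Kcnk3 was 2.38-fold higher (1.25, SD 0.34), with the fetal aorta just over the floor at 157.6. This ratio was 0.32 with a floor 2 times as high and 0.62 with the mean over its probe sets, both under 2-fold. Abcc9 was 1.45-fold higher (0.54, SD 0.34), Kcnmb1 1.43-fold higher (0.51, SD 0.28) and Kcnj8 1.29-fold higher (0.36, SD 0.30), each under 2 SD. Kcna5 had a log2 ratio of -0.06, and Kcnd3 was at least 1.80-fold lower, with the fetal ductus at the floor. Of 6 genes, 1 passed 2-fold upward and 0 downward, with a median of 0.44, against 0.959% of 7612 genes higher, 0.959% lower and a median of -0.02. Smooth muscle markers had a median of 0.68 here, and relative to it Kcnk3 was 0.56 higher while the other 5 lay at -0.15 to -1.53. Heart muscle markers summed to 39068.3 in the fetal ductus against 18440.8 in the fetal aorta. Nerve and chromaffin markers had a median of -0.70, with 2 of 13 at least 2-fold lower in the fetal ductus and 0 higher. The part of these lists in the channel ratios was not tested.

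Kcnk3 had a ductus excess of at least 2-fold at both ages, whereas Kcnj8, Abcc9 and Kcna5 had one of that size in newborns and not in fetuses. With the higher floor Kcnk3 was under 2-fold in newborns too (0.94), as it was with the mean over probe sets (0.59). The difference between the ages could not be tested gene by gene, since it has 1 value each. It came to 0.89 for Kcnj8 (SD 0.42), 1.13 for Abcc9 (SD 0.48), 1.22 for Kcna5 (SD 0.48, with an array at the floor) and 1.33 for Kcnd3 (SD 0.48, likewise). For Kcnmb1 it was -0.29 (SD 0.39) and for Kcnk3 -0.07 (SD 0.48). The second probe set of Abcc9 does not show the difference seen at the first, with a ductus excess of 0.95 in newborns and at least 0.70 in fetuses.

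**Figure D3:**
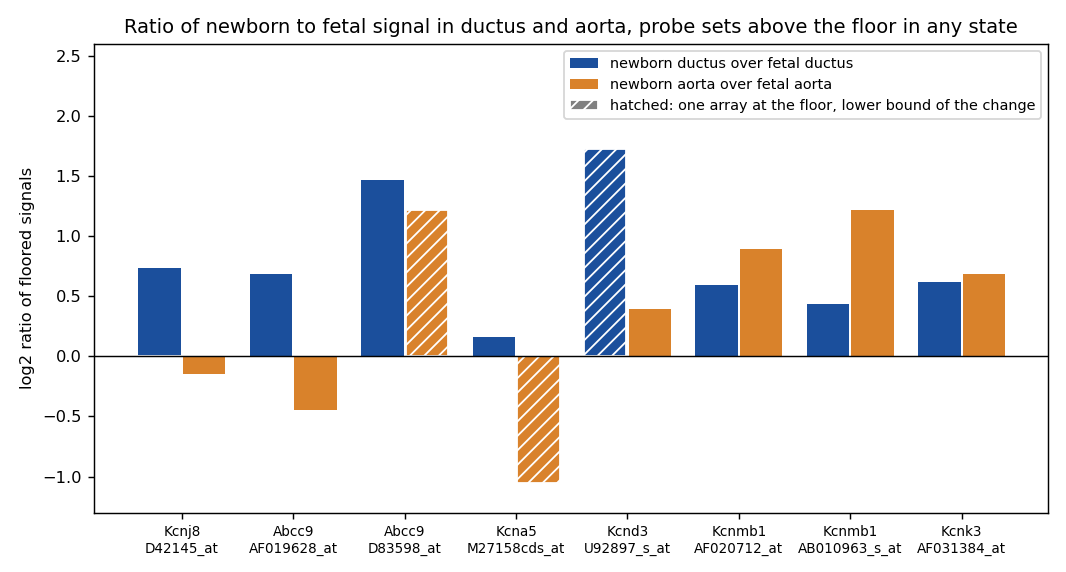
Log2 ratio of newborn to fetal signal in the ductus (blue) and the aorta (orange) for the 8 probe sets above the floor in any state, 1 array per state. Hatched bars have an array at the floor and are lower bounds of the change. D42145_at of Kcnj8, AF019628_at of Abcc9 and M27158cds_at of Kcna5 have ratios of opposite sign in the vessels, and both Kcnmb1 probe sets and Kcnk3 are positive in both.

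Birth was read in each vessel from the newborn over the fetal array. The fetal vessels came from day 19 of gestation and 2.5% oxygen medium. The newborn ones came from 3 h after vaginal delivery and 12.5% oxygen medium. Birth cannot be told apart from age or medium in these ratios or in the fit of birth effects below. In the ductus Kcnj8 was 1.66-fold higher in the newborn (0.74, SD 0.30), Abcc9 1.61-fold (0.69, SD 0.34), Kcnk3 1.54-fold (0.62, SD 0.34) and Kcnmb1 1.51-fold (0.60, SD 0.28), Kcnd3 was at least 3.32-fold higher, and Kcna5 had a log2 ratio of 0.16. Of 6 genes, 6 lay above 0 and 1 (Kcnd3, read through the newborn ductus alone) passed 2-fold upward, with 0 downward and a median of 0.65. Over 7553 genes 1.72% passed 2-fold upward and 1.79% downward, with a median of -0.05. Of the 6, 5 were at least 1.5-fold higher. Smooth muscle markers had a median of 0.59 in the same pair of arrays. Kcnj8, Abcc9, Kcnmb1 and Kcnk3 were within 0.15 of it at their brightest probe sets. D83598_at of Abcc9 was at 1.47, past 2-fold upward, and AB010963_s_at of Kcnmb1 at 0.43. Pericyte markers had a median of 0.85, endothelial markers one of 0.62 and fat markers one of 0.65 in the same arrays. Heart muscle markers were lower in the newborn ductus, at a sum of 18905.2 against 39068.3 in the fetal ductus. The part of these lists in the channel ratios was not tested.

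In the aorta the signs of the ratios differed between genes. Kcnmb1 was 1.85-fold higher in the newborn (0.89, SD 0.28), Kcnk3 1.61-fold higher (0.68, SD 0.34) and Kcnd3 1.32-fold higher (0.40, SD 0.34). Kcnj8 was at -0.15 (SD 0.30), Abcc9 at -0.44 (SD 0.34) and Kcna5 at least 2.08-fold lower. The sign of Abcc9 depends on the probe set, with D83598_at at least 1.22 higher in the newborn aorta and the mean over its probe sets at 0.26. Of 6 genes at the brightest probe set, 0 passed 2-fold upward and 1 downward, with a median of 0.12, against 2.12% and 2.71% of 7679 genes and a median of -0.05. At its second probe set (AB010963_s_at) Kcnmb1 was 1.22 higher, and with the mean over its probe sets 1.055 higher, both past 2-fold upward. The newborn aorta was the array with the most fat signal, a sum of 14834.2 against 4921.8 in the fetal aorta, with 8 of 10 fat markers at least 2-fold higher. Smooth muscle markers had a median of 0.44 in this pair. Nerve and chromaffin markers had one of -0.66, with 5 of 13 at least 2-fold lower in the newborn aorta and 0 higher. The part of these lists in the channel ratios was not tested. Ratios of the newborn ductus to the newborn aorta and of the newborn to the fetal aorta share the newborn aorta array, so the low Kcna5 value there enters both.

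The oxygen ductus was set against the fetal ductus to ask what maternal oxygen does to the vessel before birth. Kcnj8 was at -0.03 (SD 0.30), Abcc9 at -0.34 (SD 0.34), Kcna5 at -0.20 (SD 0.34), Kcnmb1 at -0.41 (SD 0.28) and Kcnk3 at -0.48 (SD 0.34), and Kcnd3 and Kcnma1 were under the floor on both arrays. None of the 5 genes was at least 2-fold higher or lower, 0 of 5 lay above 0, and their median was -0.34. That median is the value of Abcc9 at AF019628_at, whose second probe set, D83598_at, was at 0.03. Over 7459 genes 0.469% were at least 2-fold higher and 0.858% lower, with a median of 0.04. No single ratio exceeded 1.5 SD, but that SD was estimated without the oxygen ductus array and may not hold for its ratios. The oxygen ductus array also had the lowest median signal of chip A (126.2 against 150.95 in the fetal ductus). After quantile normalization, which gives all arrays the same distribution, Kcnj8 was at 0.04, Kcna5 at -0.04, Abcc9 at -0.24, Kcnk3 at -0.33 and Kcnmb1 at -0.42. Smooth muscle markers had a median of 0.19 in this pair.

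The newborn ductus was set against the oxygen ductus to set birth beside oxygen, and the pair also differs in age and in the oxygen of the medium. Kcnk3 was 2.14-fold higher in the newborn ductus (1.10, SD 0.34), Abcc9 2.04-fold (1.03, SD 0.34), Kcnmb1 2.01-fold (1.01, SD 0.28) and Kcnj8 1.70-fold (0.76, SD 0.30), Kcna5 was at 0.36 (SD 0.34), and Kcnd3 was at least 3.32-fold higher. Of 6 genes, 4 were at least 2-fold higher and 0 lower, with a median of 1.02, against 2.59% higher and 3.24% lower of 7537 genes and a median of -0.09. Kcnd3 is among the 4 through the newborn ductus alone, its oxygen ductus being at the floor. A floor 2 times as high left 2 genes and the mean over probe sets left 0. Kcnk3, Abcc9 and Kcnmb1 were close to 2-fold at their brightest probe sets. After quantile normalization their log2 ratios were 0.99, 0.96 and 1.00 (0.9984), which left Kcnd3 alone past 2-fold. The second probe sets moved Abcc9 to 1.44, past 2-fold, and Kcnmb1 to 0.60. Smooth muscle markers had a median of 0.37 in this pair, and with that median subtracted Kcnd3 alone was past 2-fold too. Pericyte markers had a median of 0.80, with a sum of 29790.1 in the newborn ductus against 17890.6 in the oxygen ductus. This pair shares an array with each of the other ductus pairs and adds no independent reading of it.

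Vessel and birth effects were also fitted together with limma over the 4 arrays of chip A other than the oxygen ductus, for 4585 probe sets. That model has 1 residual degree of freedom, with the disagreement between vessels as its error, and 6.6 prior degrees of freedom borrowed from all probe sets. For the vessel effect 0.0218% of the probe sets (1, lower in the ductus) passed a Benjamini-Hochberg adjusted p of 0.05, and none of the 8 probe sets of the channels tested did. At an unadjusted p of 0.05, 4 of the 8 passed, beside 7.39% of all probe sets. Kcnk3 came nearest, 1.22 higher in the ductus on the log2 scale (SE 0.19, adjusted p = 0.0936 by limma), a value at 0.0284 with a variance trend on intensity and at 0.123 to 0.406 under the other alternatives. Both tested probe sets of Abcc9 were higher in the ductus by limma, D83598_at by 0.83 (SE 0.20, adjusted p = 0.243) and AF019628_at by 1.10 (SE 0.28, adjusted p = 0.273). Kcnj8 was 0.81 higher (SE 0.25, adjusted p = 0.393).

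For birth 2.66% of the probe sets passed, 66 higher and 56 lower in newborns, and 1 of the 8 channel probe sets was among them. At an unadjusted p of 0.05 the counts were 5 of 8 and 19.3% of all. D83598_at of Abcc9 was 1.34 higher in newborns over both vessels together (SE 0.20, adjusted p = 0.0213 by limma, with the fetal aorta set to the floor). The call was lost with a lower floor (adjusted p = 0.102), a higher floor (0.148) and quantile normalization (0.0776), and it held with no filter (0.0399), with adjustment over the 3 chip types (0.0299) and with the variance trend (0.00458). AF019628_at of the same gene had a birth effect of 0.12 (SE 0.28, adjusted p = 0.874), so the probe sets of Abcc9 disagree on birth in this fit. AF020712_at of Kcnmb1 had a birth effect of 0.74 (SE 0.20, adjusted p = 0.0989), Kcnd3 one of 1.06 (SE 0.31, adjusted p = 0.114, with the fetal ductus at the floor) and Kcnk3 one of 0.65 (SE 0.19, adjusted p = 0.121). With the variance trend the first 2 of these passed as well. Kcnma1 was not tested, having no probe set above the floor.

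The other potassium channel genes on the chips numbered 58, of which 41 were under the floor in all 5 states, 11 were above it in some and 6 in all. Those 6 were Kcnh2 and Kcnh3 (voltage-gated pores of the ether-a-go-go family), Kcnip1 and Kcnip2 (calcium-binding partners of Kv4 pores), Kcnj1 (an inward rectifier of the kidney) and Kcnq3 (a pore of the M current). Kcnh2 read 690.6 in the newborn ductus, 421.6 in the oxygen ductus, 522.1 in the fetal ductus, 560.4 in the newborn aorta and 614.2 in the fetal aorta. Kcnip2, the partner of Kcnd3, read 880.7, 780.0 and 677.7 in the newborn, oxygen and fetal ductus and 1018.2 and 853.4 in the newborn and fetal aorta. Median log2 ratios of the 13 to 16 measured genes were between -0.18 and 0.28 over the 6 pairs, and were 0.05 for newborn ductus over newborn aorta and 0.28 for newborn over fetal ductus.

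At least 2-fold apart in a pair were 3 of these genes, each lower in the newborn vessel or in the ductus. Each was 1 of 14 to 16 genes with a ratio in its pair. Over all genes 1.18% to 2.71% were at least 2-fold lower in those pairs. Kcne2, a small accessory subunit, read 161.4 in the newborn ductus against 487.3 in the newborn aorta, at least 2.02-fold lower. Kcnj1 was 2.12-fold lower in the newborn aorta (177.9) than in the fetal aorta (377.6). Kcnj11, the ATP-sensitive pore of heart, skeletal muscle and pancreas (Kir6.2), read 54.6 in the newborn ductus, 220.1 in the oxygen ductus, 341.5 in the fetal ductus, 213.1 in the newborn aorta and 208.1 in the fetal aorta. It was at least 2.28-fold lower in the newborn than in the fetal ductus, in the pair in which the vascular pore Kcnj8 was 1.66-fold higher. Heart muscle markers summed to 18905.2 in the newborn ductus against 39068.3 in the fetal ductus, with 7 of 14 at least 2-fold lower. Their part in the Kcnj11 ratio was not tested. Abcc8, the partner of Kcnj11 in the pancreas, was above the floor in the fetal aorta alone (175.9, against 84.6 to 122.8 in the other states).

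**Figure D4:**
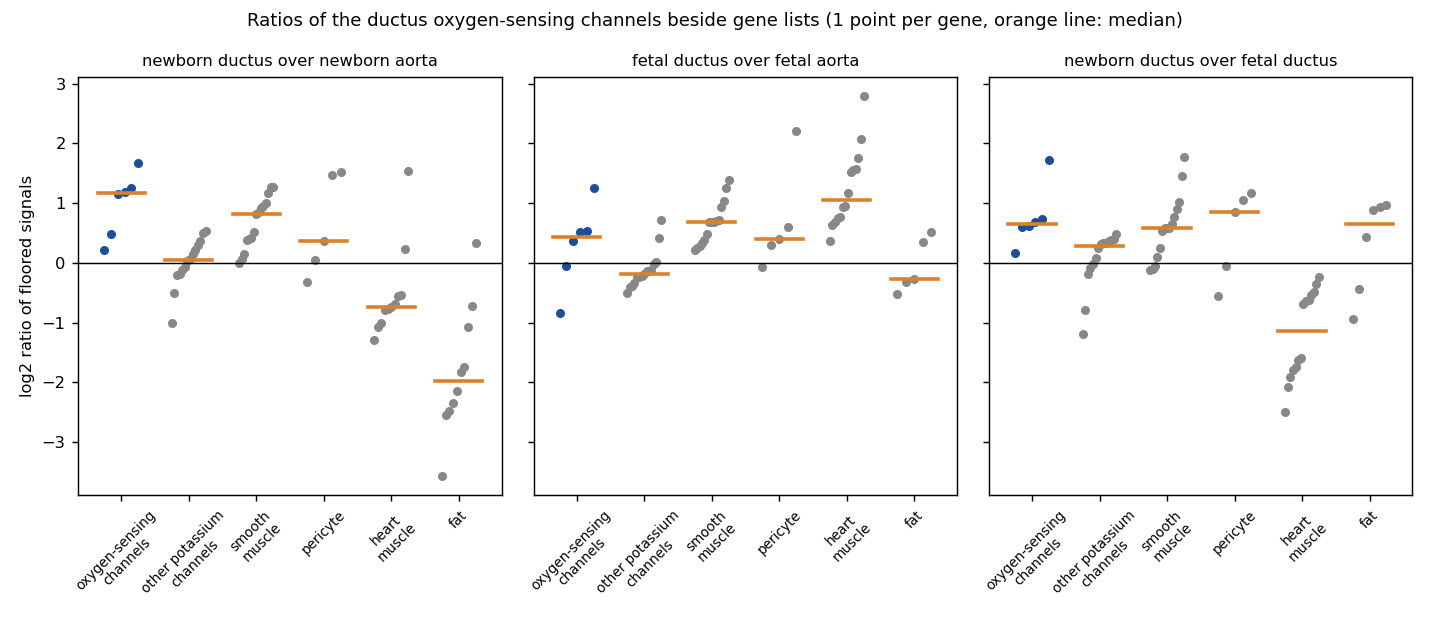
Log2 ratios of floored signals in 3 pairs of states, 1 point per gene, for the oxygen-sensing channels (blue), the other potassium channels and marker lists of smooth muscle, pericyte, heart muscle and fat (grey), with the median of each as an orange line. For newborn ductus over newborn aorta the medians were 1.17 for the oxygen-sensing channels, 0.05 for the other potassium channels, 0.81 for smooth muscle and -1.98 for fat.

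Genes of calcium handling, which follows the channels in the same response, were read in the same pairs. Of 20 genes of calcium entry and calcium stores, 12 to 14 had a ratio in a pair. In 4 of the 6 pairs 0 were at least 2-fold apart, where 0.469% to 2.71% of all genes with a ratio were so in a given direction. In fetal ductus over fetal aorta 2 of 14 were at least 2-fold higher, against 0.959% of all genes. In newborn over oxygen ductus 1 of 13 was, against 2.59%. Cacna2d1, an auxiliary subunit of voltage-gated calcium channels, read 657.1 in the fetal ductus against 220.1 in the fetal aorta, 2.99-fold higher, and the calcium pump Atp2a2 was 2.05-fold higher there. Heart muscle markers summed to 39068.3 against 18440.8 in the same arrays, and their part in these ratios was not tested. Orai1, a store-operated calcium channel pore, was 3.31-fold higher in the newborn ductus (546.2) than in the oxygen ductus (165.2).

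Of 21 genes of proposed oxygen and redox sensors, 18 to 19 had a ratio in a pair. In newborn ductus over newborn aorta, fetal ductus over fetal aorta and oxygen over fetal ductus 0 were at least 2-fold apart. Over all genes 0.469% to 1.25% were so in a given direction in those pairs. In the other pairs at most 1 gene of the list was 2-fold apart in a direction, against 1.72% to 3.24% of all genes. Sod3, the extracellular superoxide dismutase, was 2.10-fold higher in the newborn ductus (1383) than in the fetal ductus (660.2) and 2.13-fold higher than in the oxygen ductus (650.7). Ndufs1, a subunit of respiratory complex I, was 2.02-fold lower in the newborn than in the fetal ductus (299.4 against 605.3). Sod2, the mitochondrial superoxide dismutase, was 2.02-fold higher in the newborn than in the fetal aorta (383.4 against 189.4).

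For the 4 channels above the floor in all 5 states, the genes nearest in pattern were sought among 3088 single-gene chip A probe sets that were above the floor in all 5 states as well. Likeness was the root mean square distance between log2 signals, each centred on its mean over the 5 states, so that 0 is the same pattern. Nearest to Kcnj8 were Sdc4 (a cell surface proteoglycan, distance 0.14), Adcy6 (an adenylyl cyclase, 0.14) and Myh11 (the smooth muscle myosin heavy chain, 0.15). Nearest to Abcc9 was Kcnj8 itself (0.17), then Adcy6 (0.20) and the growth factor Igf1 (0.23). Nearest to Kcnmb1 were the kinase Sik2 (0.11), the glutathione peroxidase Gpx3 (0.12) and the tropomyosin Tpm1 (0.12), a smooth muscle marker. Nearest to Kcnk3 were Atp1b1 (a subunit of the sodium pump, 0.11), the small heat shock protein Hspb1 (0.16) and Atp6v1c1 (a proton pump subunit, 0.22). With 5 arrays behind each pattern these distances describe the arrays only.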

How the data were processed

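Rat ductus and aorta RNA in 5 states was hybridised to 15 Affymetrix arrays, 1 per state and chip type. The deposited values are linear signal intensities. The submitters' processing notes name MAS5 for 4 of the 5 chip A arrays, and the software for the fetal aorta array of chip A and for chips B and C is not given in the sources used here. Trimmed means of about 500 on every array show that the intensities had been scaled before they were deposited.

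Probe sets were named through the platform annotation, which pairs 18178 of 26202 with a single symbol, 391 with several symbols and 7633 with no symbol. Of the 18178, 18122 were found in the RefSeq table of GRCr8. The 7 channels, the other gene lists and the named genes were chosen with earlier results of these data known. The floor was the pooled median of a chip type (149.8 on A, 241.7 on B, 243 on C). Floored signals were put on the log2 scale, and the brightest probe set stood for its gene. Pairs of states were compared as ratios with no test, and at least 2-fold was the call rule. The SD of a ratio was estimated from the vessel-by-birth interaction in 5 signal bins. Vessel and birth effects were fitted with limma 3.58.1 (R 4.3.3) on 4 arrays per chip type, additive, where at least 2 of them exceeded the floor, with Benjamini-Hochberg adjustment per chip type. The fit was tested on simulated data. All genes of a list at least 2-fold apart are named, up to 4 a list and direction, apart from the marker lists, of which the text names those beside a result, and 1 list that is not reported here. Alternatives were the floor, quantile normalization, the mean over probe sets, a 1.5-fold rule, subtraction of the smooth muscle median, and, for limma, the filter, a variance trend and adjustment over 3 chip types. A second probe set for Abcc9 and Kcnmb1 was added after the data were seen.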

Additional observations from a re-analysis of the deposited data

Results flagged for a closer look

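In 3 of the channels the newborn over fetal ratio was above 0 in the ductus and under 0 in the aorta, by more than 0.1 on the log2 scale each way. With 1 array per state the difference was not tested. The ratio in the ductus minus that in the aorta was 0.8861 for Kcnj8 (0.74 in the ductus against -0.15 in the aorta). For Abcc9 it was 1.129 at its brightest probe set (0.69 against -0.44), while its second probe set had ratios of 1.47 and at least 1.22, both above 0. For Kcna5 it was 1.217 (0.16 against -1.06, with the newborn aorta at the floor).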

How the results depend on the processing

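The arrays allow no test of single ratios, and the 8 of 16 probe sets near background in all states gave no ratio of their own. Counts of genes at least 2-fold apart moved with the reading as follows. For newborn ductus over newborn aorta, 4 became 2 with a floor 2 times as high, 2 with the mean over probe sets, 3 with the second probe sets and 0 after subtracting the smooth muscle median. For fetal ductus over fetal aorta, 1 became 2 with the floor at 0.5 times its value, 0 with the higher floor, 3 with no floor, 0 with the mean and 2 at 1.5-fold. For newborn over fetal ductus, 1 became 0 with the higher floor, 2 with no floor, 0 with the mean, 5 at 1.5-fold and 2 with the second probe sets. For newborn over fetal aorta, 1 became 0 with the higher floor, 0 with quantile normalization, 2 with the mean, 3 at 1.5-fold and 3 with the second probe sets. The 1 (Kcna5) was lower in the newborn aorta, whereas the genes added by these readings were higher there. For oxygen over fetal ductus, 0 became 1 with no floor. For newborn over oxygen ductus, 4 became 2 with the higher floor, 1 with quantile normalization, 1 after subtracting the smooth muscle median, 3 with the second probe sets, 5 at 1.5-fold and 0 with the mean. Calls by limma went from 0 to 1 for vessel with the variance trend, and for birth from 1 to 3 with the trend and to 0 with the lower floor, the higher floor and quantile normalization. A higher floor leaves less range above it, and the mean takes in probe sets near background. The cause of the other moves was not tested. Of the 35 ratios, 35 kept their sign with the lower floor and with no floor, 34 with the mean, 33 with quantile normalization, 32 with the second probe sets and 27 after subtracting the smooth muscle median, as did 32 of 32 with the higher floor. No paired analysis was possible because each state has 1 array per chip type.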
